A study of Mus musculus with 4 samples.

Results

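The 10 genes described here belong to the integrated stress response and were chosen by symbol: the regulators Atf4, Atf3, Atf5, Ddit3 and Nupr1, and the targets Trib3, Chac1, Asns, Sesn2 and Ddit4. All 10 of 10 were found among the 21690 features of the deposited tables. The integrated stress response is the program that cells start when phosphorylation of the translation factor eIF2 lowers general protein synthesis while raising translation of the transcription factor ATF4. Several kinases, each tuned to another stress, phosphorylate eIF2, and ATF4 then drives genes for amino acid supply, for feedback on the response and, when stress lasts, for cell death. ATF4 is controlled mainly through translation of its mRNA, so its transcript level and the levels of its targets are separate measurements.

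The sequenced RNA came from mouse neural precursors. They were differentiated from A2lox embryonic stem cells, which accept a doxycycline-inducible construct at a fixed locus and here carried an inducible knockdown of Geminin, a regulator of DNA replication and of cell fate. The 3 knockdown libraries came from cells grown in N2B27, a serum-free neural medium, and given 500 ng doxycycline from day 3 until harvest on day 5. The 1 control library came from the same line and medium on day 5 with no doxycycline. By the labels the 3 knockdown cultures are separate experiments. The control has 1 library, and all 4 libraries derive from 1 engineered line kept on feeder fibroblasts before differentiation. Doxycycline, itself known to inhibit mitochondrial protein synthesis, was given to every knockdown culture and to no control culture, so its effects and those of Geminin loss cannot be told apart.

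Geminin mRNA (Gmnn) was at 27.0, 65.9 and 27.9 FPKM in knockdown libraries 1, 2 and 3, against 113 FPKM in the control, that is 24.0%, 58.4% and 24.7% of the control level. FPKM is the number of fragments per kilobase of exon, scaled to library depth. The authors' deposited tables mark Gmnn as lower for libraries 1 and 3. The knockdown libraries were not alike: library 1 had as little Gmnn as library 3, yet in most of the genes below it lay near the control, whereas libraries 2 and 3 lay apart from it. The deposited values hold no counts. Low features changed in steps of whole reads, from which depths of about 5.92, 6.81 and 5.74 M mapped fragments were estimated for knockdown libraries 1, 2 and 3, against 5.91 M for the control.

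Promoter sequence was available for all 10 genes in RefSeq (build GRCm38.p6), from 250 bases before to 50 bases after each start. ATF4 with a C/EBP partner binds a composite element, searched here as TGATGNAA on both strands, where N is any base. It was found in 5 of the 10 genes, and in 3.97% of 32851 promoter windows of the same length. The 5 stretches are shown because they are the places in these windows where the element lies, and capitals mark the match. A match is a description of the letters and not a measured binding site.
Atf3, chr1:191183410-191183469, minus strand: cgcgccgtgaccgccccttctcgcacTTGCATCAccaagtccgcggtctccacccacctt
Nupr1, chr7:126625547-126625606, minus strand: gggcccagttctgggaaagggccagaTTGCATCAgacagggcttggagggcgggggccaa
Chac1, chr2:119351023-119351082, plus strand: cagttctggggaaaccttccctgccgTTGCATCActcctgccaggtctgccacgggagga
Asns, chr6:7693210-7693258, minus strand: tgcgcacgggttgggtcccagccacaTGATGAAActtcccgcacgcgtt
Trib3, chr2:152344029-152344056, minus strand: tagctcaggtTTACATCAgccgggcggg
Atf3, Nupr1 and Chac1 hold the same 8 letters, TTGCATCA, on the strand opposite to the search pattern. Their first base lies at -110 from the start in Atf3 and in Nupr1, and at -193 in Chac1. In Asns the match is on the searched strand at -23, and in Trib3 it lies just after the start. Chac1 holds a second element, TGACGCAA, at -250, which occurs in 0.490% of the windows. The cAMP response element TGACGTCA was in none of the 10 windows and in 1.79% of all. Windows were matched by gene symbol alone. A gene was counted when any window under its symbol held the element, whereas the percentages are shares of windows. Among the other ATF4 targets listed below, 12 of the 32 matched in this way hold TGATGNAA. The rest of that list had no window under the symbol used and was not searched.

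By the rule in the series' design text, a gene is called when the authors' Cuffdiff tables mark it significant in the same direction in at least 2 of the 3 tables. Each table sets 1 knockdown library against the same control. Of the 10 genes 5 rose in knockdown by this rule and 0 fell: Atf5, Nupr1, Chac1, Asns and Sesn2. Over all 14477 features that could be called, 1.98% rose and 0.905% fell. The genes were marked unevenly by library: 0 of 10 were marked higher in library 1, 5 in library 2 and 7 in library 3, against 0.909%, 3.23% and 3.33% of all features tested there. None of the 10 was marked lower in any library, where 1.52%, 2.02% and 1.28% of all features were. All 3 knockdown libraries lay above the control in 5 of the 10 genes and below it in 0. The shares were 22.8% and 22.7% of the 12162 features with a mean FPKM of at least 1. An FPKM ratio of at least 1 on the log2 scale in at least 2 libraries was reached by 4, Ddit3, Nupr1, Trib3 and Chac1. The share was 3.32% of those 12162 features. The median log2 ratio of (FPKM + 1) over the 10 genes was 0.03, 0.98 and 0.93 in libraries 1, 2 and 3, against -0.02, 0.03 and 0.01 over the 12162 features with a mean FPKM of at least 1. In the control the levels per exon length ran from 122 FPKM for Atf4 through 104 for Asns and 84.0 for Ddit4 to 3.48 for Trib3, 3.15 for Chac1 and 1.45 for Nupr1. Every call of the 5 rests on libraries 2 and 3, so without either of these the count is 0, and without library 1 it stays at 5.

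**Figure D1:**
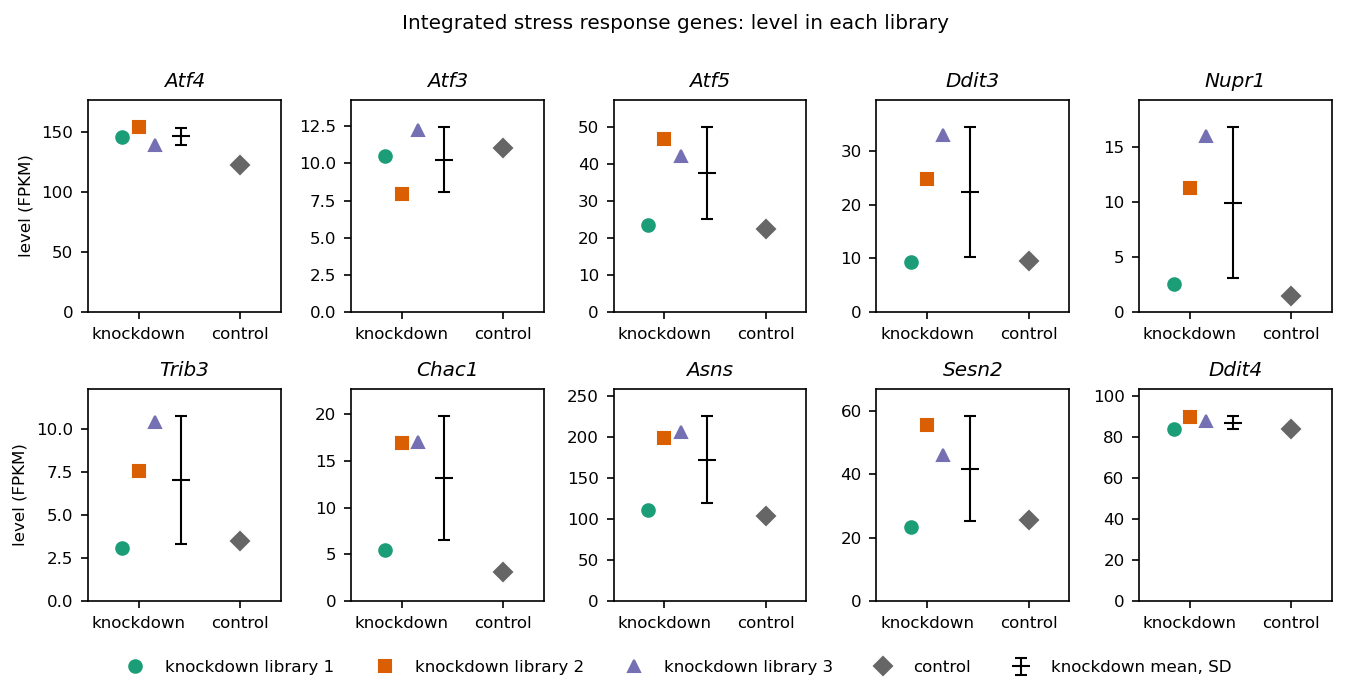
Level of each gene in FPKM (linear axis from 0) in knockdown libraries 1, 2 and 3, their mean with SD, and the single control library. In 7 genes, all but Atf4, Atf3 and Ddit4, libraries 2 and 3 lie well above both library 1 and the control.

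Among the regulators Atf4 (mm9 chr15:80085613-80087971), whose product drives the program, was not called. It had 146, 154 and 140 FPKM in knockdown libraries 1, 2 and 3, against 122 FPKM in the control. All 3 knockdown libraries lay above the control, at a mean ratio of 1.20 ± 0.06 (SD, n = 3). The groups do not overlap, which for this direction holds for 22.8% of the 12162 features with a mean FPKM of at least 1. Atf4 was marked in 0 of the 3 tables. The deposited table of library 1 gives it a p of 0.00465 and a q-value of 0.114 at a ratio of 1.20. In the deposited table of library 2 the larger ratio of 1.26 has a p of 0.129. The error behind these p-values, worked back from each deposited test statistic and ratio, was 0.152 natural log units for library 2 and 0.0631 for library 1.

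Atf5 (mm9 chr7:52067625-52104449), a relative of ATF4 that is also controlled by translation and acts in the mitochondrial stress response, rose. It had 23.5, 46.9 and 42.3 FPKM in knockdown libraries 1, 2 and 3, against 22.4 FPKM in the control. Libraries 2 and 3 were high and library 1 was at the control level, giving a mean ratio of 1.67 ± 0.55 (SD, n = 3). The authors' deposited tables give q-values of 0.941, 0.00344 and 0.0141 for libraries 1, 2 and 3. Atf5 is listed at 1 joint locus with Nup62, Tbc1d17, Il4i1 and Nup62-il4i1, so the share of reads given to it is uncertain. Nup62, a nuclear pore gene among these neighbours, had 70.0, 81.1 and 80.1 FPKM, against 77.1 FPKM in the control.

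Ddit3 (mm9 chr10:126727848-126748842) encodes CHOP, the factor tied to cell death under lasting stress. Its level was 9.27, 24.8 and 33.0 FPKM in knockdown libraries 1, 2 and 3, against 9.47 FPKM in the control. Library 1 was at the control level, and libraries 2 and 3 were high. The ratios of 2.64 in library 2 and 3.44 in library 3 exceed those of Atf5. Ddit3 still did not meet the rule, since the authors' deposited tables mark it for library 3 (q-value 0.00779) but not for library 2 (q-value 0.108). It shares its listed locus with Mars, and its control value differed between the tables, at 9.43, 9.40 and 9.59 FPKM. Mars itself, methionyl-tRNA synthetase, had 43.5, 59.2 and 58.6 FPKM, against 45.9 FPKM in the control.

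Nupr1 (mm9 chr7:133766759-133768984), a small stress-induced chromatin protein, had the highest ratios of the 10 genes. Its FPKM was 2.53, 11.3 and 16.0 in knockdown libraries 1, 2 and 3, against 1.45 in the control. All 3 knockdown libraries lay above the control, libraries 2 and 3 further than library 1, where the authors' deposited table holds no test for this gene. The ratios were 1.74, 7.80 and 11.1, and the authors' deposited tables marked libraries 2 and 3, with q-values of 0.0122 and 0.00128. Few reads stand behind them. The smallest whole numbers of reads that give all 3 ratios within 0.05% are 7, 36 and 43 for the 3 knockdown libraries, against 4 for the control, and the true numbers may be a multiple of these, since the control depth gives an estimate of 7.10 fragments. With the smallest numbers the exact 95% interval for the ratio, covering counting error only, is 2.80 to 30.2 in library 2 and 4.02 to 42.4 in library 3. In library 1 it is 0.444 to 8.13, which includes no difference.

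Atf3 (mm9 chr1:192994175-193007212), which is induced by ATF4 and also by mitogen and damage signals, was not called. It had 10.5, 7.94 and 12.3 FPKM in knockdown libraries 1, 2 and 3, against 11.1 FPKM in the control. The knockdown libraries lie on both sides of the control, and Atf3 was marked in 0 of the 3 tables. Its ratio was lowest, 0.718, in library 2, and 1.11 in library 3. Of the 10 genes it was the one below the control in library 2.

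Chac1 (mm9 chr2:119176977-119180060), which degrades glutathione and is a classical ATF4 target, had the largest rise among the targets. It had 5.49, 17.0 and 17.0 FPKM in knockdown libraries 1, 2 and 3, against 3.15 FPKM in the control. Libraries 2 and 3 were nearly equal, at ratios of 5.39 and 5.40, and library 1 lay between them and the control, at 1.74. The smallest matching read numbers were 49, 174 and 147 for the 3 knockdown libraries, against 28 for the control. They give exact 95% intervals of the ratio, for counting error only, of 1.08 to 2.88 in library 1, 3.60 to 8.35 in library 2 and 3.59 to 8.41 in library 3. In the authors' deposited tables the q-values are 0.244, 0.000283 and 0.000157. Chac1 and Nupr1 share the ratio 1.74 in library 1 because both come to 7 reads for every 4.

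Asns (mm9 chr6:7625170-7643182), asparagine synthetase, was the most abundant target. Its FPKM was 111, 199 and 206 in knockdown libraries 1, 2 and 3, against 104 in the control. The ratios were 1.07, 1.92 and 1.99, and q-values in the authors' deposited tables were 0.750, 0.000823 and 7.21e-05. Library 1 was near the control and libraries 2 and 3 were high. Of the 5 genes that rose Asns had the most fragments in the control, an estimated 1235. Sesn2 (mm9 chr4:132048721-132066371), a leucine sensor that restrains mTORC1, had 23.4, 55.5 and 46.1 FPKM, against 25.6 FPKM in the control. It was the called gene with a knockdown library below the control, at a ratio of 0.912 in library 1, with 2.17 and 1.80 in libraries 2 and 3. The authors' deposited tables give it q-values of 0.000588 and 0.0105 in those libraries.

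Trib3 (mm9 chr2:152163160-152169796), a pseudokinase that feeds back on ATF4 and CHOP, had 3.06, 7.55 and 10.4 FPKM in knockdown libraries 1, 2 and 3, against 3.48 FPKM in the control. Libraries 2 and 3 were high and library 1 was below the control. Like Ddit3, Trib3 is marked in the authors' deposited tables for library 3 alone, with a q-value of 0.0303 there and 0.308 for library 2. The matching read numbers were 37, 105 and 122, against 42 in the control. The exact 95% interval of the ratio, for counting error only, was 2.09 to 4.35 in library 3. Ddit4 (mm9 chr10:59412422-59414518), also called REDD1, which restrains mTORC1 and answers to hypoxia and glucocorticoids as well, stayed within a narrow range. It had 83.7, 89.6 and 87.7 FPKM, against 84.0 FPKM in the control, and its mean ratio was 1.04 ± 0.04 (SD, n = 3). The knockdown libraries lie on both sides of the control, and none was marked.

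**Figure D2:**
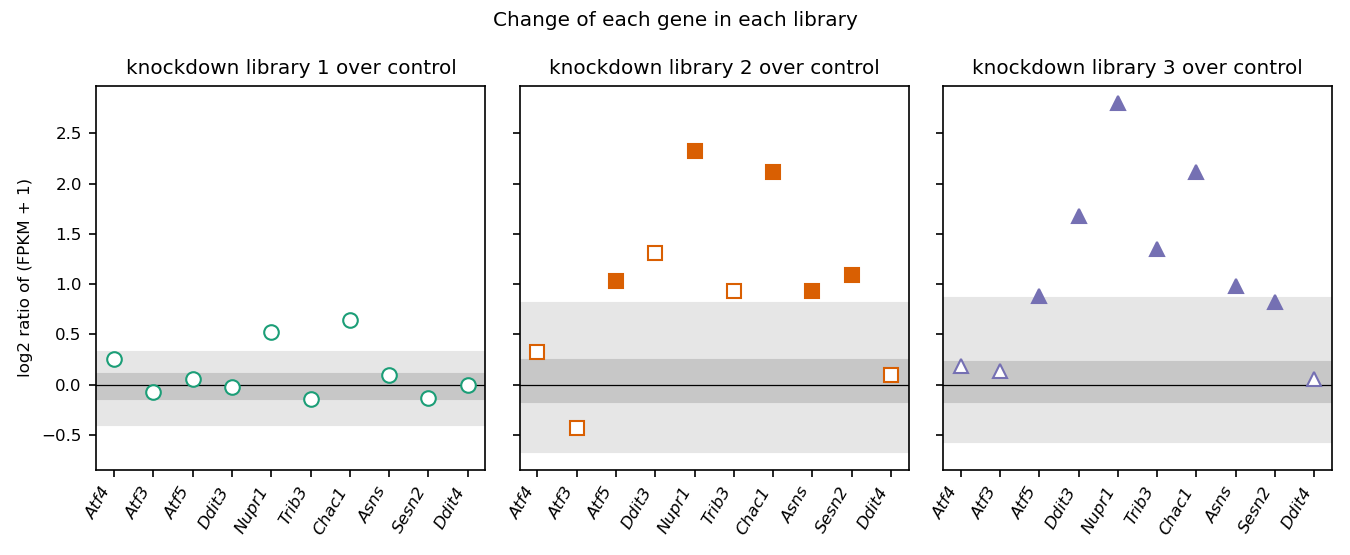
Log2 ratio of (FPKM + 1), knockdown library over control, for each gene in each library, with filled symbols where the authors' table marks the gene and open ones where it does not. The light band spans the 5th to 95th percentile of all features tested and the dark band the middle quartiles. In library 1 Nupr1 and Chac1 lie above the light band, at 0.53 and 0.65, and in library 3 Sesn2 is marked at 0.82, inside it.

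The genes fell into a group with ratios of at least 1.5 in both libraries 2 and 3 (Atf5, Ddit3, Nupr1, Trib3, Chac1, Asns and Sesn2) and a group without (Atf4, Atf3 and Ddit4). At least 1.5 times the control level was reached by 2 of the 10 genes in library 1, and by 7 in library 2 and 7 in library 3. Over all features tested the shares were 2.43%, 10.6% and 11.3%. Set directly against each other, Ddit3, Nupr1 and Trib3 were higher in library 3 than in library 2, at 1.33, 1.42 and 1.38 times. Chac1 and Asns were nearly equal (1.00 and 1.03 times), and Atf5 and Sesn2 were lower in library 3 (0.902 and 0.831 times). These values were taken across the 2 deposited tables and not on the scale of the control. The control value differed between them for Ddit3, at 9.40 and 9.59 FPKM, and slightly for Atf5. With 1 library each, these comparisons have no replicate check.

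A test over all 4 libraries did not call these genes. In limma on log2(FPKM + 1), 0 of the 10 passed an adjusted p of 0.05 and 0 had an unadjusted p under 0.05, as 1.33% of all features did. The smallest p was that of Chac1 (log2 change 1.63, standard error 0.69, limma Benjamini-Hochberg adjusted p = 0.993). Across all features 3 were higher (0.0247%) and 16 lower (0.132%) at the adjusted threshold. Gmnn, the gene knocked down, did not pass it either, at a log2 change of -1.59 with a standard error of 0.57. Failing to pass therefore does not show that a gene is unchanged. The fit has 2 residual degrees of freedom, and the gap between library 1 and libraries 2 and 3 enters its error. Without library 1, limma gave 7 of the 10 an unadjusted p under 0.05, all higher in knockdown, against 7.04% of all features in that direction, and the smallest adjusted p was 0.112, for Chac1. In that fit Nupr1 had a log2 change of 2.56 with a standard error of 0.28, against 0.97 in the full fit. The fit without library 1 has fewer residual degrees of freedom. Its error holds only the gap between libraries 2 and 3 and the prior variance. Without library 2, and likewise without library 3, limma gave 0 of the 10 an unadjusted p under 0.05. With 3 libraries against 1, an exact permutation test cannot give a two-sided p below 0.5, so none was run.

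The machinery upstream of ATF4 was read from the same tables. A list of 15 genes held the eIF2 kinases, eIF2, its exchange factor eIF2B, the eIF2 phosphatase and the kinase inhibitor Impact. There were 0 calls higher and 1 lower, where 1.98% and 0.905% of all features were called. That count is too small to set apart from those shares. The 1 that fell was Impact, an imprinted gene whose product inhibits the kinase GCN2, at 74.5, 48.0 and 50.1 FPKM in knockdown libraries 1, 2 and 3, against 78.6 FPKM in the control. The kinases were singled out by role. Eif2ak4, which encodes GCN2, had 17.0, 15.0 and 15.0 FPKM, against 16.4 in the control. Eif2ak3, which encodes PERK, had 6.12, 8.48 and 8.82 FPKM, against 7.67, and Eif2ak1, which encodes the heme-regulated kinase HRI, had 22.6, 15.4 and 16.2 FPKM, against 23.1. Eif2ak2, which encodes PKR, had 10.7, 10.1 and 8.68 FPKM, against 10.2. None of the 4 was called. Ppp1r15a, the stress-induced phosphatase subunit and itself an ATF4 and CHOP target, had 22.1, 17.9 and 21.6 FPKM, against 17.0, and was not called.

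Of 46 measured genes from a list of further ATF4 targets, 7 rose and 0 fell, and 39 were not called, where 1.98% of all features rose and 0.905% fell. The median log2 ratio over this list was 0.03, 0.46 and 0.46 for the 3 knockdown libraries. Slc7a1, which imports cationic amino acids, had 14.4, 27.8 and 32.0 FPKM in knockdown libraries 1, 2 and 3, against 12.7 FPKM in the control. Gpt2, a mitochondrial alanine transaminase, had 14.0, 35.5 and 30.8 FPKM, against 14.6. Mthfd2, of mitochondrial folate metabolism, had 42.8, 77.6 and 80.7 FPKM, against 40.6, and Slc3a2, the shared heavy chain of amino acid transporters, had 62.9, 99.8 and 96.5 FPKM, against 55.6. All 7 calls rest on libraries 2 and 3, and 0 remain without either. Of 12 bZIP partners of ATF4, which bind DNA with it, 0 were called. The most abundant were Nfe2l1, at 65.0, 80.0 and 92.9 FPKM, against 66.9 in the control, and Jun, at 24.8, 21.8 and 28.5 FPKM, against 20.5.

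Genes of other stress pathways are given here list by list, to be read against the 1.98% of all features that rose and the 0.905% that fell. With lists of 10 to 22 genes, 0 or 1 call is near those shares. Among 22 chaperones and targets of the IRE1 and ATF6 arms of the unfolded protein response 0 were called. Their log2 ratios had medians of -0.01, -0.16 and 0.01 in the 3 libraries. Hsp90b1, an endoplasmic reticulum chaperone, had 698, 597 and 681 FPKM in knockdown libraries 1, 2 and 3, against 663 FPKM in the control, and Calr had 701, 553 and 613 FPKM, against 629. Of 13 genes of the mitochondrial stress response 1 rose, Mthfd2, and the median was -0.09, 0.10 and 0.00. Fgf21 and Gdf15, secreted signals of that response, were too low to be called. Of 16 p53 targets, a pathway that also drives Sesn2, 1 rose: Cdkn1a, an inhibitor of the cell cycle, had 40.9, 62.0 and 76.9 FPKM, against 36.3. The p53 medians were 0.05, 0.21 and 0.42. Of 13 genes that restrain mTORC1 beside Ddit4 and Sesn2 0 were called, with Eif4ebp1 (also on the list of ATF4 targets) at ratios of 0.892, 1.24 and 1.46 and Eif4ebp2 at 0.954, 0.777 and 0.751.

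In 4 further stress lists 0 genes rose. Of 13 hypoxia targets 1 fell, Ldha, which makes lactate, at 465, 224 and 326 FPKM in knockdown libraries 1, 2 and 3, against 601 FPKM in the control. Of 10 heat shock genes 1 fell, Hspa8, at 1813, 1260 and 1523 FPKM, against 1871. Of 11 NRF2 targets 0 were called, with Txnrd1 at ratios of 0.923, 0.761 and 0.770 and Gsr at 1.10, 0.800 and 0.917. Of 11 immediate early genes, a class that includes Atf3, 0 were called, with median log2 ratios of -0.00, -0.73 and -0.18. Library 2 had the lowest median of the 3 in this class, as it had the lowest Atf3. Ier2 there had a ratio of 1.00 and Jun 1.06. The call of Ldha rests on libraries 1 and 2, that of Hspa8 on all 3, and those of Cdkn1a, Mthfd2 and Impact on libraries 2 and 3.

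**Figure D3:**
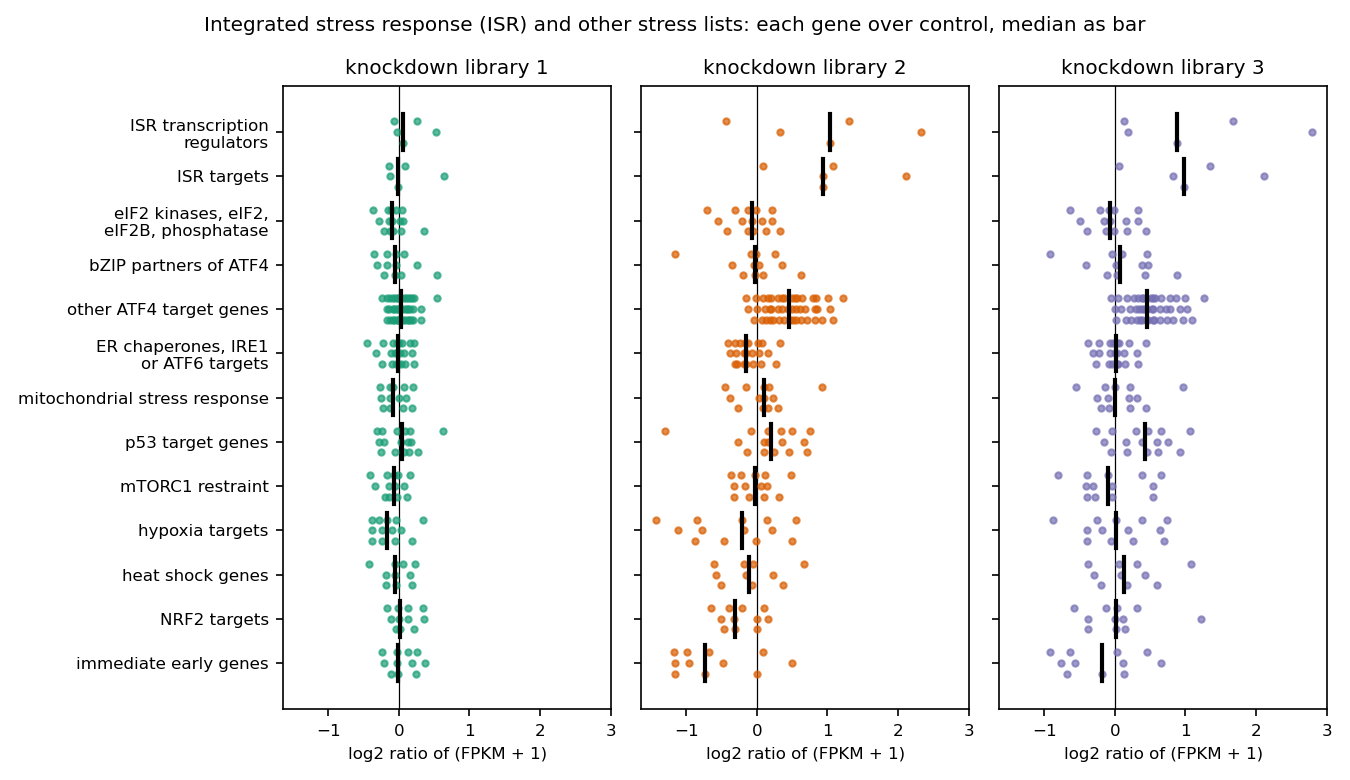
Log2 ratio of (FPKM + 1) over the control for every gene of the integrated stress response (ISR) groups and of 11 other stress lists, 1 panel per knockdown library, with black bars at the list medians. In libraries 2 and 3 the medians of the 10 genes, of the other ATF4 targets (0.46 and 0.46) and of the p53 targets (0.21 and 0.42) lie right of 0, and in library 1 all medians lie between -0.17 and 0.06.

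Markers of several cell types were higher in libraries 2 and 3. Summed over 10 markers each, pluripotent cell markers were at 137%, 600% and 982% of the control in knockdown libraries 1, 2 and 3, and 8 of the 10 rose, where 1.98% of all features rose. Over this list the median log2 ratio was 0.10, 2.01 and 2.55, and 6 of the 10 lay above the control in library 1. Dppa5a, which gave the most to the sum, had 32.8, 184 and 286 FPKM, against 19.9 in the control. Pou5f1 had 22.4, 45.2 and 69.5 FPKM, against 16.9. Neuron markers were at 105%, 399% and 195%, with 6 of the 10 called higher, Nefm and Tubb3 among them. Tubb3 had 24.0, 138 and 75.8 FPKM, against 22.2, and Nefm had 17.6, 198 and 74.2 FPKM, against 15.6. The list was not uniform, since Stmn2, its most abundant gene in the control, had 75.4, 44.6 and 40.5 FPKM, against 66.9, and was not called. Neural precursor markers, the labelled cell type, were present in every library, at 98.7%, 182% and 162% of the control for the sum, to which Vim, the 1 gene of the 10 called higher, gave the most. The median log2 ratio of the list was 0.03, 0.41 and 0.16. Vim had 376, 1005 and 958 FPKM, against 388, and Sox2 had 140, 203 and 154 FPKM, against 135. Sox1 had 63.8, 42.5 and 48.8 FPKM, against 64.0, and was not called. Fibroblast markers were at 113%, 180% and 294% of the control but low, between 31.1 and 81.0 FPKM in knockdown and 27.6 FPKM in the control for the sum of 10, with Lum listed at 0 in the control and in library 3. Col1a1 had 9.19, 13.3 and 23.1 FPKM, against 7.70, and Col1a2 had 8.13, 9.50 and 16.3 FPKM, against 9.43, and neither was called. The 2 of the 10 called higher were Postn, at 2.71, 4.74 and 6.55 FPKM, against 1.23, and Lox, at 4.54, 9.41 and 16.1 FPKM, against 3.56. Stmn2, Sox1, Postn and Lox were named after their values were seen. The marker calls rest on libraries 2 and 3, with 0 left without either. In bulk RNA a change in the number of cells of a type and a change of RNA per cell cannot be told apart, and the part of these shifts in the stress response values was not tested.

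**Figure D4:**
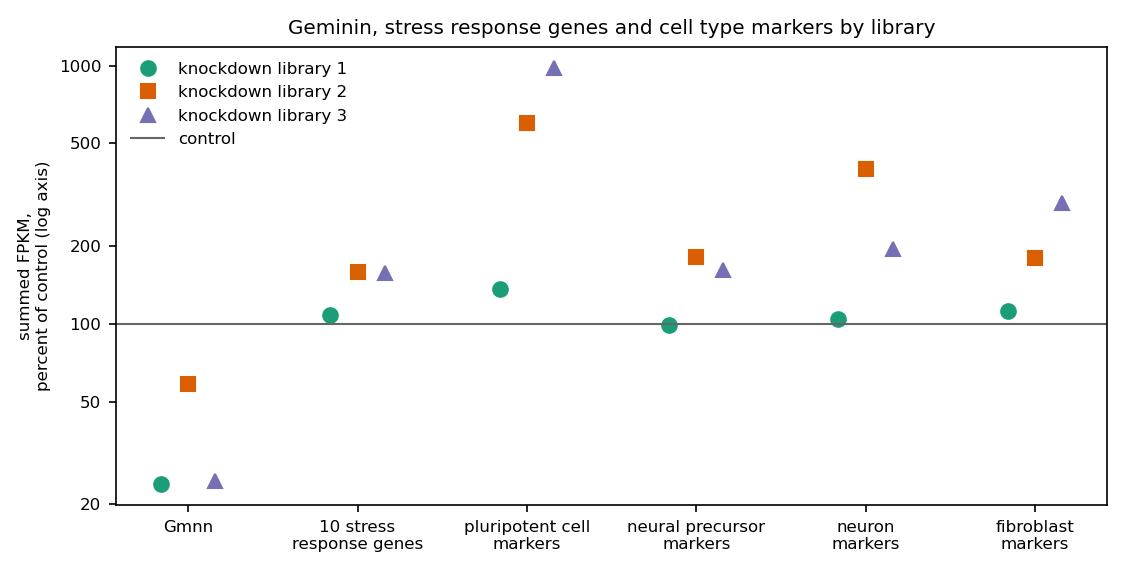
Gmnn, the summed FPKM of the 10 stress response genes and of 4 sets of 10 cell type markers, as percent of the control (line at 100%) on a log axis, for each knockdown library. The 10 genes sum to 108%, 159% and 158% of the control in libraries 1, 2 and 3, while Gmnn is at 24.0%, 58.4% and 24.7%. Atf4, Asns and Ddit4 hold most of the sum of the 10. The same sum over the 12162 features tested is at 106%, 89.2% and 90.2%.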

How the data were processed

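Per the submitters' processing notes, reads were handled with TopHat, Cufflinks and Cuffdiff on mm9; tool versions and annotation were not given in the sources used here. Each of 3 deposited tables sets 1 knockdown library against the same control, so each tests libraries and not conditions. The authors deposited FPKM, a Cuffdiff p-value, a q-value that exceeds 1 in places and is therefore treated as a score, and a second score, the ln ratio with the control on top, which served to check direction. Ratios to the control were formed within a table. Of the 21690 features, 14477 had usable tests in at least 2 tables.

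Log2(FPKM + 1) was fitted with limma 3.58.1 in R 4.3.3 (trended prior variance, Benjamini-Hochberg, threshold 0.05) on the 12162 features that averaged 1 FPKM or more and failed in no table. The fit assumes that the lone control varies as the knockdown libraries do. It was tested on simulated data with equal spread in every library and with larger changes than those of the genes described here. The gap between the knockdown libraries was not simulated, so that test does not show how the fit performs for these genes. Log2 values with this pseudocount understate changes of low genes.

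Relative depth came from untested low features, of which 84.7% to 87.9% had ratios within 0.2% of whole reads up to 12. Absolute depth came from 189 features with 1 GENCODE transcript each (quartiles 5.55 and 6.20 M fragments for the control). Intervals cover counting error only.

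Genes named are the 10, Gmnn, up to 4 called genes with the largest mean ratio per stress list (else the 2 most abundant), and 2 per marker list. The eIF2 kinases, Ppp1r15a, Fgf21 and Gdf15 were added by role. The genes and lists were chosen with earlier results of these data known. Of the listed genes 4 were matched by RefSeq synonyms. The deposited files that repeat marked features were not used.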

Additional observations from a re-analysis of the deposited data

How the results depend on the processing

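The count of 5 genes that rose was 0 when all 3 tables had to mark a gene, and 0 to 5 when a knockdown library was left out, with 5 without library 1 and 0 without library 2 or library 3. The loss follows from the construction, since 2 tables must mark and 2 are left. A mark in any 1 table gave 7 genes. A log2 FPKM ratio of at least 1 in at least 2 tables gave 4 (Ddit3, Nupr1, Trib3 and Chac1). The share was 3.32% of the 12162 features with a mean FPKM of at least 1. By limma 0 of the 10 passed under every alternative run, and without library 1 the smallest adjusted p was 0.112. At an unadjusted p under 0.05 limma gave 7 of the 10 without library 1, and 0 without library 2 or library 3. The alternative with a mean FPKM of at least 10 tested 8 of the 10 genes, without Nupr1 and Trib3. The median log2 ratio of 0.67 ran from 0.50 without library 3 to 0.96 without library 1. Of 78 log2 changes recomputed for single genes, 77 kept their direction, and that of Atf3, -0.12, ran from -0.25 without knockdown library 3 to 0.035 without library 2, which reversed it. Over all features limma called 19, against 8 with a pseudocount of 0.1, 10 with no filter, 1 at a mean FPKM of at least 10, 40 without library 1 and 9 without library 3. No paired analysis was possible because the control has 1 library, so the groups share fewer than 2 replicate numbers. Low read numbers limit Nupr1, Chac1 and Trib3 most.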

Other observations

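The features whose 3 log2 ratios lay nearest to the median ratios of the 10 stress response genes were sought among other features. These were the 7523 with a mean FPKM of at least 10 over all 4 libraries. Nearest was Mthfd2, which is on the list of other ATF4 targets, at a distance of 0.0883 over the 3 libraries. Usp49, a deubiquitinase, followed at 0.100 with 6.99, 14.3 and 13.5 FPKM in knockdown libraries 1, 2 and 3, against 7.01 FPKM in the control, and Sgsm2 at 0.121 with 6.60, 13.3 and 13.7 FPKM, against 6.76. Epb4.1l3, a protein of the membrane skeleton, was at 0.138, and Ppap2b, a lipid phosphatase, at 0.147 with 12.7, 26.8 and 22.3 FPKM, against 12.3. The filter includes libraries 2 and 3, so it lets in features that are high there and lower elsewhere. Usp49 and Sgsm2 lay under 10 FPKM in the control and in library 1, and passed it by their values in libraries 2 and 3. Mthfd2 and Ppap2b were above 10 FPKM in every library, and Epb4.1l3 had 9.95 FPKM in the control. The search was not repeated with a filter on the control alone. All 3 ratios share the control library, and nearness over 3 values is a description.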
